A study of Mus musculus with 6 samples.

Results

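The eicosanoid synthesis enzymes are the proteins that turn arachidonic acid into prostaglandins, thromboxane and leukotrienes. The set comprised 10 of the 24786 gene symbols in the expression table, chosen by symbol. They were *Pla2g4a* for the release of arachidonic acid, *Ptgs1* and *Ptgs2* for the cyclooxygenase step, *Ptges*, *Ptges3*, *Hpgds* and *Tbxas1* for the terminal synthase step, and *Alox5*, *Alox5ap* and *Lta4h* for the leukotriene step. All of them had a value in every library.

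Messenger RNA was sequenced from Raw264.7 cells, a mouse macrophage line from a tumor induced by Abelson murine leukemia virus. The labels give the strain C57BL/6 and postnatal day 21. Both were copied as given, although the line is usually described with another strain of origin. Cells of both groups were infected with lentivirus with Lipofectamine 3000 and selected with puromycin. The virus carried a control short hairpin RNA in 3 libraries (sh-NC, genotype label control) and a hairpin against *Etv5* in the other 3 (sh-*Etv5*, genotype label *Etv5* knockdown). The labels state that expression was read 24 or 48 h after infection without saying which time applies to these libraries, the study calls the sequenced cells stably transfected, and which of its 3 hairpins against *Etv5* these libraries carried is not stated. Nothing in the sources says that the libraries came from separate infections, so p-values measure only the spread between these libraries, which may be technical. *Etv5* encodes an ETS family transcription factor, and the comparison asks which genes change when its message is reduced.

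As background, cytosolic phospholipase A2 frees arachidonic acid from membranes. Cyclooxygenases convert it to prostaglandin H2, from which terminal synthases make the individual prostanoids, while 5-lipoxygenase with its helper protein makes leukotriene A4. In macrophages *Ptgs2* is the inducible cyclooxygenase of inflammatory activation and *Ptgs1* the form usually present at rest, and *Ptges* is the inducible prostaglandin E synthase.

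Of the 10 enzymes, *Ptgs2* and *Ptges* rose in sh-*Etv5* cells, and *Ptgs1*, *Ptges3*, *Hpgds*, *Alox5*, *Alox5ap* and *Lta4h* fell. *Pla2g4a* was not called, and *Tbxas1* was too low to enter the test. The mean level of *Ptgs2* went from 8.51 ± 0.394 to 327 ± 10.8 RPKM and that of *Ptgs1* from 12.9 ± 0.815 to 2.27 ± 0.172 RPKM (SD, n = 3 libraries each). RPKM counts the reads on a gene relative to its length and to all mapped reads of the library. A gene was tested with limma on log2(RPKM + 1) if it reached 1 RPKM in at least 3 of the 6 libraries, and it was called at a Benjamini-Hochberg adjusted p below 0.05 over all 10738 genes tested. Fold changes on this scale are smaller than the ratio of the RPKM values for genes near or below 1 RPKM.

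The called share has to be read against a table in which most genes were called. Among all tested genes 74.3% were called, 33.3% higher and 41.0% lower in sh-*Etv5*. Of the 9 tested enzymes 8 were called (88.9%), with 2 higher and 6 lower, a share near that background. A log2 fold change beyond 1 in either direction was rarer over the table, at 9.23% of tested genes, and 3 of the 9 enzymes (*Ptgs2*, *Ptges* and *Ptgs1*) passed it. *Ptges* entered the test only through its sh-*Etv5* libraries and so had to differ. Without it 2 of 8 tested enzymes passed that threshold and 7 of 8 were called. The 3 sh-NC and the 3 sh-*Etv5* values did not overlap for 8 of the 9 (7 of 8 without *Ptges*), against 76.4% of all tested genes. The median log2 fold change was -0.33 over the 9 enzymes, *Ptges* included, and -0.05 over all tested genes.

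**Figure D1:**
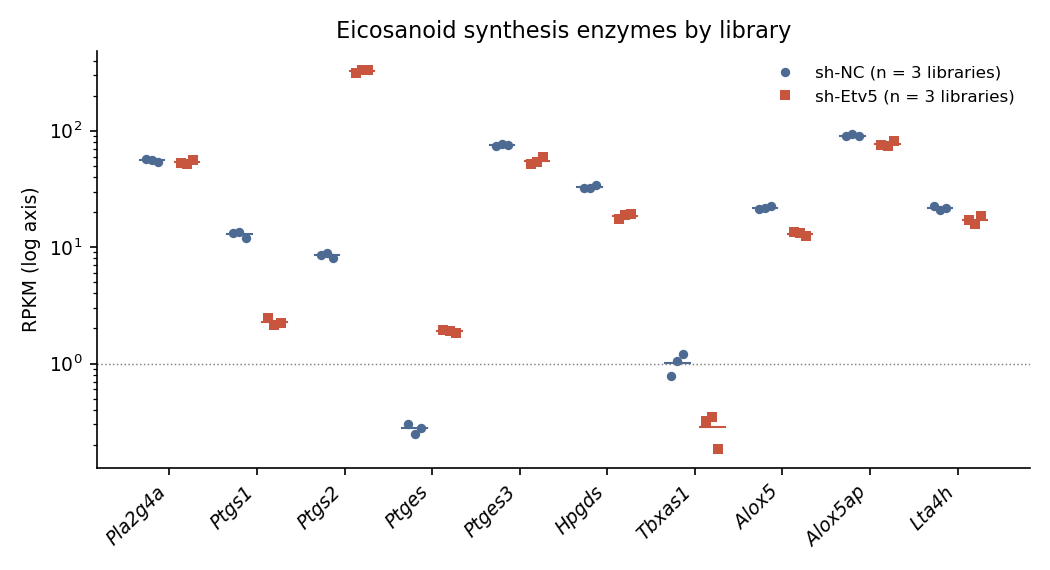
RPKM of the 10 enzymes on a log axis. Circles are the 3 sh-NC libraries, squares the 3 sh-*Etv5* libraries, short lines the group means and the dotted line 1 RPKM. The sh-*Etv5* values of *Ptgs2* lie at 315 to 334 RPKM against 8.12 to 8.91 in sh-NC, *Ptgs1* moves the other way, and *Pla2g4a* is the only one of the 10 whose groups overlap.

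The promoter sequences of the 3 genes past a log2 fold change of 1 are shown because the targeted factor binds DNA. They are RefSeq windows of GRCm38.p6 that end at the base before the annotated start, each given 5′ to 3′ on the strand of its gene. Capitals mark every match, on either strand, to one of 9 motifs that were searched. The *Ptgs2* window is chr1:150099781-150100030 on the plus strand, the *Ptgs1* window chr2:36230176-36230425 on the plus strand, and the *Ptges* window chr2:30903298-30903547 on the minus strand.
Ptgs2: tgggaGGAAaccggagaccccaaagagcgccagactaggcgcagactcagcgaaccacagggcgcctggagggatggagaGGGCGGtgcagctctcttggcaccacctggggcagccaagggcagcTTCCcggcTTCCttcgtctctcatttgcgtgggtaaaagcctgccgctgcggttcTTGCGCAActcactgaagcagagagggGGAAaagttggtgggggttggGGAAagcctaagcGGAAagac
Ptgs1: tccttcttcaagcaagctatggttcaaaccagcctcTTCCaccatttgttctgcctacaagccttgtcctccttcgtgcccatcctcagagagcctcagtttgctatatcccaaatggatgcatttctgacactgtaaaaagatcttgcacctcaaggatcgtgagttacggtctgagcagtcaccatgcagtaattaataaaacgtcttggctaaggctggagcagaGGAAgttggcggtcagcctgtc
Ptges: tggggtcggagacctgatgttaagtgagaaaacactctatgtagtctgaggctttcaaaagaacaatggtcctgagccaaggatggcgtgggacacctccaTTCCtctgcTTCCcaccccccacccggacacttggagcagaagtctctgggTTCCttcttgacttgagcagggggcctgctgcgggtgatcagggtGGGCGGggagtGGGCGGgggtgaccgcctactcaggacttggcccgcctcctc

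The motifs were the ETS core GGAA, its longer form CGGAAG (which contains the core), the TATA box TATAAA, the E-box CACGTG, the cyclic AMP response half-site TGACG, the GC box GGGCGG, the AP-1 site TGANTCA, the C/EBP site TTGCNNAA and the NF-kB consensus. The GGAA core matched 6 times in the *Ptgs2* window, 2 times in the *Ptgs1* window and 3 times in the *Ptges* window. That core was present in 93.4% of the 32851 RefSeq windows of the same length, so its presence does not set these promoters apart, and CGGAAG, held by 13.6% of windows, was in none of the 3. A C/EBP match, held by 9.56% of all windows, began 69 bases before the *Ptgs2* start. A GC box, held by 32.7% of all windows, occurred 1 time in the *Ptgs2* window and 2 times in the *Ptges* window. None of the 3 windows matched the TATA box (12.4% of all windows), the E-box (6.02%), the response half-site (17.8%), the AP-1 site (6.75%) or the NF-kB consensus (3.9%). The GC content was 61.6% for *Ptgs2*, 59.6% for *Ptges* and 48.0% for *Ptgs1*. Of the other members, *Hpgds* held a C/EBP match, *Ptges3* a CGGAAG match and 3 GC boxes, and *Alox5* a GC box. *Tbxas1* held an AP-1 match and 2 overlapping TATA matches, and 1 of the 2 *Pla2g4a* windows held a TATA match. These are matches of letters in short windows and not measured binding sites. Bases past the annotated start were not searched, so a motif absent from a window may lie just beyond it.

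*Pla2g4a* encodes cytosolic phospholipase A2, the enzyme that frees arachidonic acid from membrane phospholipids. The gene lies on chr1:149829618-149961290 (GRCm38, minus strand). Its RPKM was 57.0, 55.7 and 54.2 in the sh-NC libraries and 52.3, 52.2 and 55.5 in the sh-*Etv5* libraries. The third sh-*Etv5* library lay inside the sh-NC range, so the groups overlapped. The estimated change was -0.06 on the log2 scale, with a 95% interval from -0.15 to 0.0253 and a limma adjusted p of 0.179. That interval leaves room for a small decrease. The call turned on the scaling and on 1 library. It was -0.12 with limma adjusted p 0.00995 when libraries were rescaled to the same sum of RPKM, and -0.09 with adjusted p 0.0459 without the third sh-*Etv5* library.

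*Ptgs2* encodes cyclooxygenase-2. The gene lies on chr1:150100031-150108227 (plus strand), with 138740 bases between it and *Pla2g4a*. It was read at 8.51, 8.91 and 8.12 RPKM in sh-NC and at 315, 333 and 334 RPKM in sh-*Etv5*. Every sh-*Etv5* library was far above every sh-NC library. The ratio of the group means was 38.4, and ratios of single libraries ran from 35.3 to 41.1. The log2 fold change was 5.11 (95% interval 5.02 to 5.20, SE 0.0421, limma adjusted p 8.2e-15), the 12th largest increase of the 10738 genes tested. By mean level *Ptgs2* stood 6077th of all 24786 symbols in sh-NC and 113th in sh-*Etv5*.

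*Ptgs1* encodes cyclooxygenase-1 and lies on chr2:36230426-36252272 (plus strand). Its RPKM was 13.1, 13.6 and 12.0 in sh-NC and 2.46, 2.13 and 2.22 in sh-*Etv5*, again without overlap. The mean was 5.68-fold lower in sh-*Etv5*. On the log2 scale the change was -2.09 (95% interval -2.24 to -1.94, SE 0.0673, limma adjusted p 3.89e-10), which placed *Ptgs1* 27th from the bottom of the 10738 tested genes. Its level moved from 4716th to 9547th of all symbols. The annotated exons of *Ptgs1* share 148 bases (3.81% of its exonic bases) with *Gm43621* on the opposite strand, and reads there cannot be assigned because strand use is not stated.

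The order of the cyclooxygenases within a library differed between the groups. Within each library, log2(RPKM + 1) of *Ptgs2* minus that of *Ptgs1* was -0.564, -0.562 and -0.513 in sh-NC and 6.51, 6.74 and 6.70 in sh-*Etv5*. *Ptgs1* was thus the higher of the pair in every sh-NC library and *Ptgs2* in every sh-*Etv5* library. The group means of that difference were 7.20 apart (exact two-sided permutation test, p = 0.1, the smallest p that 3 against 3 libraries can give). *Ptgs2* made up 39.8 ± 0.477% of the summed cyclooxygenase RPKM in sh-NC and 99.3 ± 0.0751% in sh-*Etv5* (SD, n = 3). The sum itself was 21.4 ± 1.21 RPKM in sh-NC and 329 ± 10.7 RPKM in sh-*Etv5*, and did not overlap between the groups.

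The long noncoding neighbours of *Ptgs2* were read as well. *Ptgs2os*, annotated on the minus strand with 67 bases between its start and that of *Ptgs2*, was listed at 0, 0.00118 and 0 RPKM in sh-NC and at 0.87, 0.664 and 0.65 RPKM in sh-*Etv5*. It stayed below 1 RPKM in all 6 libraries and did not enter the test. Its exons do not overlap those of *Ptgs2*. *Ptgs2os2*, a lincRNA that lies 50815 bases past the end of *Ptgs2*, was read at 0.964, 1.11 and 1.49 RPKM in sh-NC and at 5.3, 4.74 and 4.83 RPKM in sh-*Etv5*. It rose without overlap between the groups, by 1.45 on the log2 scale (95% interval 1.24 to 1.66, limma adjusted p 1e-07).

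**Figure D2:**
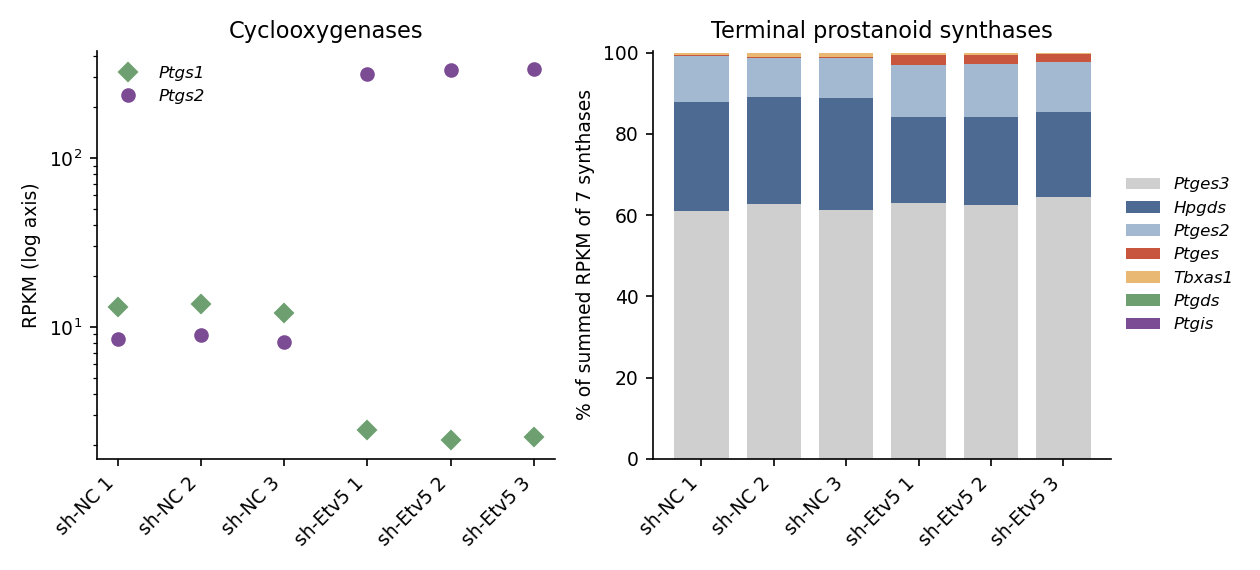
Left, RPKM of *Ptgs1* (diamonds) and *Ptgs2* (circles) in each of the 6 libraries on a log axis: *Ptgs1* is above *Ptgs2* in the 3 sh-NC libraries and below it in the 3 sh-*Etv5* libraries. Right, stacked bars of the percent that each of 7 terminal prostanoid synthases takes of their summed RPKM in each library: *Ptges3* is the widest band throughout, the *Ptges* band is 0.226% on average in sh-NC and 2.18% in sh-*Etv5*, and the *Hpgds* band is 26.8% and 21.3%.

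*Ptges* encodes the microsomal prostaglandin E synthase that is usually paired with cyclooxygenase-2. GENCODE places the gene on chr2:30889471-30929863 (minus strand), longer at its 5′ end than the RefSeq transcript whose promoter is given above. Its RPKM was 0.304, 0.247 and 0.281 in sh-NC and 1.95, 1.89 and 1.82 in sh-*Etv5*. Every sh-*Etv5* value was above every sh-NC value, all of which were below 1 RPKM. The ratio of means was 6.81, with single-library ratios from 5.99 to 7.91. limma gave a log2 fold change of 1.18 (95% interval 1.00 to 1.35, SE 0.0797, adjusted p 1.51e-07). *Ptges* passed the filter on low values only through its 3 sh-*Etv5* libraries, and its fold change depends on the pseudocount, at 2.40 with 0.1 and 2.73 with 0.01 in place of 1.

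*Ptges3* encodes the co-chaperone p23, also called cytosolic prostaglandin E synthase, and is widely expressed for its chaperone role. It lies on chr10:128058954-128077272 (plus strand). Its RPKM was 73.7, 77.4 and 76.0 in sh-NC and 51.6, 54.0 and 59.8 in sh-*Etv5*. The groups did not overlap, and the mean was 27.1% lower in sh-*Etv5*. This was a log2 fold change of -0.45 (95% interval -0.56 to -0.34, limma adjusted p 1.04e-05). Of the 50-base stretches in its exons 19.6% also occur in the gene models *Ptges3-ps* and *Gm11893*. How reads there were assigned is not stated, so the size of any error in the value is unknown. The relative *Ptges3l* had 3.63 ± 0.453 RPKM in sh-NC and 3.88 ± 0.646 RPKM in sh-*Etv5* (SD, n = 3), with overlapping groups and an adjusted p of 0.544 from limma.

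*Hpgds* encodes the hematopoietic prostaglandin D synthase, which isomerises prostaglandin H2 to prostaglandin D2. It lies on chr6:65117293-65144908 (minus strand). The sh-NC libraries read 32.4, 32.3 and 33.9 RPKM and the sh-*Etv5* libraries 17.5, 18.7 and 19.4 RPKM. All 3 sh-*Etv5* values were lower than all 3 sh-NC values, and the mean was 43.6% lower. On the log2 scale the difference was -0.79 (95% interval -0.90 to -0.69, SE 0.0464, limma adjusted p 4.35e-08).

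*Tbxas1* encodes thromboxane A synthase, which makes thromboxane A2 from prostaglandin H2. It lies on chr6:38875404-39084585 (plus strand) and was read at 0.784, 1.05 and 1.20 RPKM in sh-NC and 0.318, 0.346 and 0.185 RPKM in sh-*Etv5*. Only 2 libraries reached 1 RPKM, so it was not tested in the fit over all genes. The groups did not overlap, and the mean level was 72.1% lower in sh-*Etv5* (exact two-sided permutation test, p = 0.1, the smallest the design allows). With no filter on low values the limma fit gave a log2 fold change of -0.65 and an adjusted p of 0.00834. At such levels the value rests on an unknown number of reads.

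Together with *Ptges2*, *Ptgds* and *Ptgis*, these 4 genes are the 7 terminal prostanoid synthases whose RPKM was summed within each library. Other genes of the pathway list were left out of the sum and of the shares. Among them was *Akr1b3*, at 97.3 ± 0.729 RPKM in sh-NC and 91.8 ± 3.98 RPKM in sh-*Etv5*, above *Ptges3* in both groups. The sum was 123 ± 1.55 RPKM in sh-NC and 87.1 ± 5.49 RPKM in sh-*Etv5* (SD, n = 3; exact permutation p = 0.1). *Ptges* took 0.251, 0.2 and 0.227% of it in sh-NC and 2.38, 2.19 and 1.96% in sh-*Etv5*, a difference of group means of 1.95 percentage points (exact two-sided permutation test, p = 0.1). *Ptges* thus remained a small share of synthase message in every library. Without *Ptges3*, whose message serves other functions too, the *Ptges* share was 0.59 ± 0.0528% in sh-NC and 5.92 ± 0.467% in sh-*Etv5*. The *Hpgds* share of all 7 was 26.8 ± 0.572% and 21.3 ± 0.4%. Per molecule length, *Hpgds* was read 119 ± 12.2 times as high as *Ptges* in sh-NC and 9.84 ± 0.844 times as high in sh-*Etv5* (SD, n = 3). *Ptgds* was listed at 0 in the 3 sh-*Etv5* libraries and at no more than 0.117 RPKM in sh-NC.

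*Alox5* encodes 5-lipoxygenase, the enzyme that starts leukotriene synthesis, and lies on chr6:116410077-116461178 (minus strand). Its RPKM was 21.2, 21.7 and 22.7 in sh-NC and 13.5, 13.2 and 12.4 in sh-*Etv5*. The groups were apart, and the mean was 40.3% lower in sh-*Etv5*. The log2 fold change was -0.70 (95% interval -0.81 to -0.60, SE 0.0482, limma adjusted p 1.65e-07).

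*Alox5ap* encodes the 5-lipoxygenase activating protein, a membrane protein that presents arachidonic acid to the lipoxygenase. It lies on chr5:149264767-149288153 (plus strand) and had the highest level of the 10 in sh-NC. Its RPKM was 89.4, 93.1 and 89.6 in sh-NC and 74.7, 74.3 and 81.1 in sh-*Etv5*. The groups did not overlap, although the mean was only 15.4% lower. That is a log2 fold change of -0.24 (95% interval -0.33 to -0.15, limma adjusted p 0.000289). Its exons share 189 bases (13.3% of its exonic bases) with *Gm19719* on the opposite strand, and without strand the reads of these genes cannot be told apart.

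*Lta4h* encodes leukotriene A4 hydrolase, which makes leukotriene B4, and lies on chr10:93453411-93484875 (plus strand). Its RPKM was 22.6, 20.9 and 21.5 in sh-NC and 17.0, 15.7 and 18.4 in sh-*Etv5*. No sh-*Etv5* library reached the lowest sh-NC library, and the mean was 21.5% lower. limma estimated a log2 fold change of -0.33 (95% interval -0.46 to -0.21, adjusted p 0.000323).

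The lipoxygenase and its helper protein were also compared with each other. Within each library, log2(RPKM + 1) of *Alox5* minus that of *Alox5ap* was -2.02, -2.05 and -1.94 in sh-NC and -2.39, -2.41 and -2.61 in sh-*Etv5*. The helper protein was above the enzyme everywhere, and the gap was wider in each sh-*Etv5* library, by 0.46 on average (exact two-sided permutation test, p = 0.1). As a ratio of RPKM values, *Alox5ap* over *Alox5* was 4.15 ± 0.18 in sh-NC and 5.9 ± 0.553 in sh-*Etv5* (SD, n = 3).

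**Figure D3:**
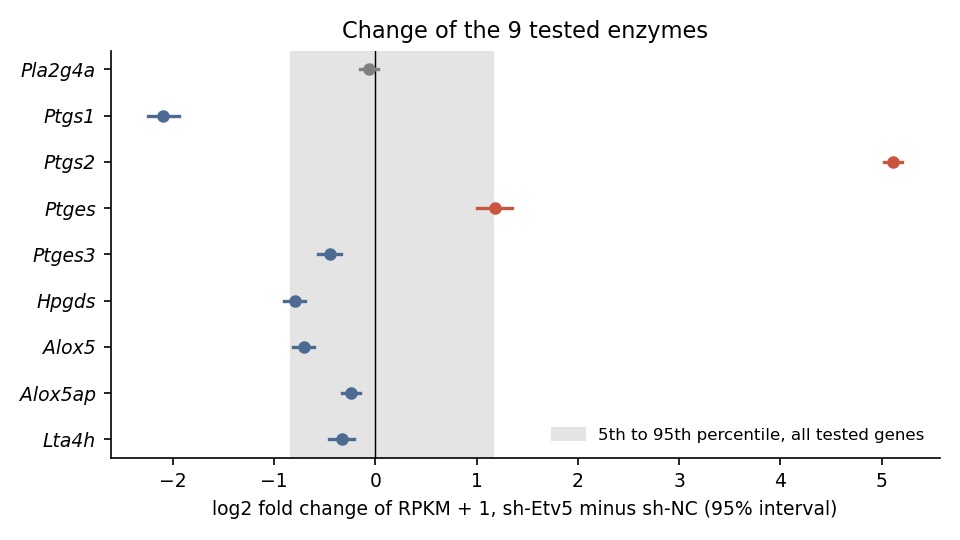
Log2 fold change of RPKM + 1 (sh-*Etv5* minus sh-NC) of the 9 tested enzymes, with points for the limma estimates and bars for 95% intervals. The grey band runs from -0.83 to 1.16, the 5th to 95th percentile of all tested genes. *Ptgs2* at 5.11 and *Ptgs1* at -2.09 lie well outside it on opposite sides, *Ptges* at 1.18 lies at its upper edge, and the other 6 lie inside it.

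Placed among all tested genes, the smaller changes of the set were not unusual in size. The 25th and 75th percentiles of log2 fold change over the table were -0.34 and 0.28. The values of *Lta4h*, *Alox5ap* and *Pla2g4a* lay between them, and *Ptges3*, *Alox5* and *Hpgds* lay below the 25th but above the 5th percentile. *Ptges* at 1.18 lay just beyond the 95th percentile of 1.16. *Ptgs1* lay below the 5th percentile and *Ptgs2* above the 95th.

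**Figure D4:**
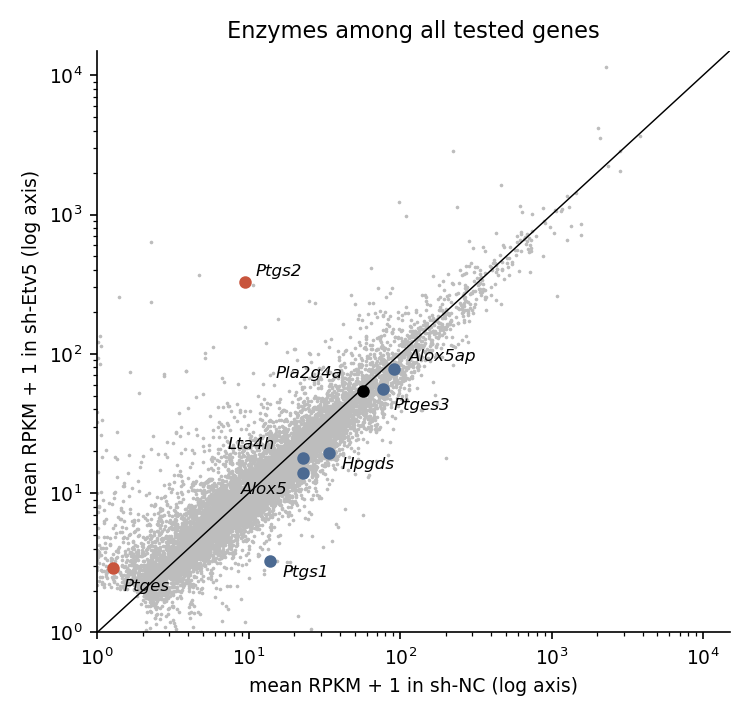
Mean RPKM + 1 in sh-*Etv5* against sh-NC on log axes for all 10738 tested genes (grey), with the 9 tested enzymes marked red where called higher, blue where called lower and black where not called. The diagonal is equality. *Ptgs2* lies far above the diagonal and *Ptgs1* below the bulk of genes of its level, while the other enzymes stay within the cloud.

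The order of the levels changed mainly through *Ptgs2*. RPKM is per length, but the counter and the read assignment behind it are not given, so the order is that of the deposited values. In sh-NC the mean levels ran from *Alox5ap* through *Ptges3*, *Pla2g4a*, *Hpgds*, *Alox5*, *Lta4h*, *Ptgs1*, *Ptgs2* and *Tbxas1* to *Ptges*. The only neighbours in that order whose libraries overlapped were *Alox5* and *Lta4h*. In sh-*Etv5* the order was *Ptgs2*, *Alox5ap*, *Ptges3*, *Pla2g4a*, *Hpgds*, *Lta4h*, *Alox5*, *Ptgs1*, *Ptges* and *Tbxas1*. There the libraries of *Ptges3* and *Pla2g4a* overlapped, as did those of *Hpgds* and *Lta4h*. *Ptgs2* thus went from the 8th position to the first, and its lowest sh-*Etv5* library (315 RPKM) was above the highest of *Alox5ap* (81.1 RPKM).

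The rest of the pathway was read through a list of 93 other genes in 8 roles, of which 46 passed the filter. Among these, 20 rose, 16 fell and 10 were not called, so 78.3% were called against 74.3% of all tested genes, a share close to the background. With libraries rescaled to the same sum, 18 rose and 19 fell, so which direction was more frequent depended on the scaling. Their median log2 fold change was 0.07. The 47 genes that did not pass reached at most 1.35 RPKM in any library. For each role, up to 3 called genes with the largest fold change are named.

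Other phospholipases and lipases, which free or remodel fatty acids, had 10 of 23 members tested, with 6 higher and 2 lower. *Pla2g5*, a secreted phospholipase A2, was read at 12.1, 12.8 and 11.8 RPKM in sh-NC and 39.6, 40.3 and 40.4 RPKM in sh-*Etv5* (log2 fold change 1.63, limma adjusted p 8.11e-11). Another secreted form, *Pla2g2e*, rose from 2.43 ± 0.299 to 8.36 ± 1.28 RPKM (log2 fold change 1.44). The lysosomal phospholipase *Pla2g15* rose from 10.2 ± 0.231 to 20.8 ± 0.0735 RPKM (log2 fold change 0.96). The median of the 10 was 0.55.

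Genes listed for arachidonate uptake into phospholipids or for its synthesis had 13 of 15 members tested, with 3 higher, 7 lower and a median of -0.57. The list did not sort them by the fatty acid they prefer. *Lpcat1*, a lysophosphatidylcholine acyltransferase, was read at 31.9, 33.1 and 32.3 RPKM in sh-NC and at 15.1, 14.7 and 15.2 RPKM in sh-*Etv5* (log2 fold change -1.06, limma adjusted p 1.26e-09). *Lpcat4*, of the same group of acyltransferases, fell from 45.4 ± 2.26 to 22.3 ± 0.899 RPKM. The desaturase *Fads2*, which acts in the synthesis of arachidonic acid, fell from 96.0 ± 3.83 to 49.5 ± 4.07 RPKM. Their log2 fold changes were -0.99 and -0.94. The 3 higher genes were *Acsl4*, *Lpcat2* and *Mboat7*, with log2 fold changes of 0.62, 0.60 and 0.13. *Lpcat3* was not called, at -0.06. These genes are named after their values were seen.

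Of the genes listed as other prostanoid synthases 4 of 7 were tested, with 2 higher and 1 lower. The remaining tested gene, *Akr1b3*, was not called (log2 fold change -0.08, limma adjusted p 0.0651) and is named after its values were seen. Whether each listed gene makes prostanoids in these cells was not tested. *Akr1b8*, an aldo-keto reductase, was read at 11.1, 12.5 and 11.4 RPKM in sh-NC and 46.5, 45.8 and 47.8 RPKM in sh-*Etv5* (log2 fold change 1.91, limma adjusted p 5.44e-11). *Cbr1*, a carbonyl reductase that can act on prostaglandin E2, rose from 12.4 ± 0.282 to 15.5 ± 0.959 RPKM (log2 fold change 0.30). *Ptges2*, the second membrane-associated prostaglandin E synthase, went from 13.6, 12.1 and 12.2 RPKM to 10.5, 11.3 and 11.6 RPKM and fell by 0.17 on the log2 scale, with a limma adjusted p of 0.0262. That call was lost without the first sh-NC library (limma adjusted p 0.119) and without the first sh-*Etv5* library (0.101), with no filter on low values (0.126) and on untransformed RPKM (0.0583).

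Other lipoxygenases, leukotriene C4 synthases and the epoxygenase branch had 6 of 17 members tested, with 2 higher, 4 lower and a median of -0.98. *Mgst3*, a microsomal glutathione transferase, was read at 37.1, 38.0 and 35.7 RPKM in sh-NC and 15.2, 16.1 and 17.8 RPKM in sh-*Etv5* (log2 fold change -1.13, limma adjusted p 1.14e-08). Its relative *Mgst2*, which can make leukotriene C4, fell from 15.3 ± 2.18 to 7.16 ± 0.312 RPKM (log2 fold change -0.99), and the microsomal epoxide hydrolase *Ephx1* fell from 5.97 ± 0.577 to 2.46 ± 0.717 RPKM (log2 fold change -1.03). *Ltc4s*, the leukotriene C4 synthase itself, is named after its values were seen. It was read at 5.36, 5.07 and 5.00 RPKM in sh-NC and 1.64, 2.55 and 2.30 RPKM in sh-*Etv5*, and it fell by 0.97 on the log2 scale (limma adjusted p 5.33e-06).

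Genes for the breakdown and conversion of eicosanoids had 4 of 8 members tested, with 3 higher and none lower. *Dpep2*, a dipeptidase that converts leukotriene D4, was read at 1.92, 1.93 and 2.80 RPKM in sh-NC and 7.78, 6.17 and 5.91 RPKM in sh-*Etv5* (log2 fold change 1.25, limma adjusted p 2.29e-06). The carbonyl reductase *Cbr3* and the prostaglandin reductase *Ptgr1* rose by log2 fold changes of 0.75 and 0.62. *Hpgd*, which encodes the main prostaglandin dehydrogenase, is named after its values were seen. It stayed below the filter, at 1.09, 0.902 and 0.505 RPKM in sh-NC and 0.092, 0.0261 and 0.094 RPKM in sh-*Etv5*. The groups did not overlap, and the mean of *Hpgd* was 91.5% lower in sh-*Etv5*. With no filter on low values limma gave it an adjusted p of 0.0133, at levels that rest on an unknown number of reads.

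The transporter *Abcc1*, which exports leukotriene C4, rose from 19.7 ± 0.465 to 27.1 ± 1.87 RPKM (log2 fold change 0.44, limma adjusted p 1.42e-05), 1 of 2 tested transporters of 4 listed. Receptors had 4 of 16 members tested, with 1 higher and 2 lower. *Ptgir*, the prostacyclin receptor, was read at 2.01, 2.29 and 2.65 RPKM in sh-NC and 25.9, 26.3 and 26.5 RPKM in sh-*Etv5* (log2 fold change 3.04, limma adjusted p 2.52e-11), the largest change of the 46 other pathway genes. The prostaglandin E receptor *Ptger1* fell from 18.4 ± 0.772 to 9.82 ± 0.144 RPKM (log2 fold change -0.84) and the cysteinyl leukotriene receptor *Cysltr1* from 4.28 ± 0.481 to 2.60 ± 0.363 RPKM (log2 fold change -0.55). The 3 protein partners and inhibitors were all tested, and 2 rose slightly. They were *Cotl1*, a partner of 5-lipoxygenase, with a log2 fold change of 0.14, and *Plaa*, named phospholipase A2 activating protein, with 0.12. The call for *Plaa* was lost without the first or the second sh-NC library or the third sh-*Etv5* library, with limma adjusted p from 0.0791 to 0.0902, and with libraries rescaled to the same sum, with 0.219.

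**Figure D5:**
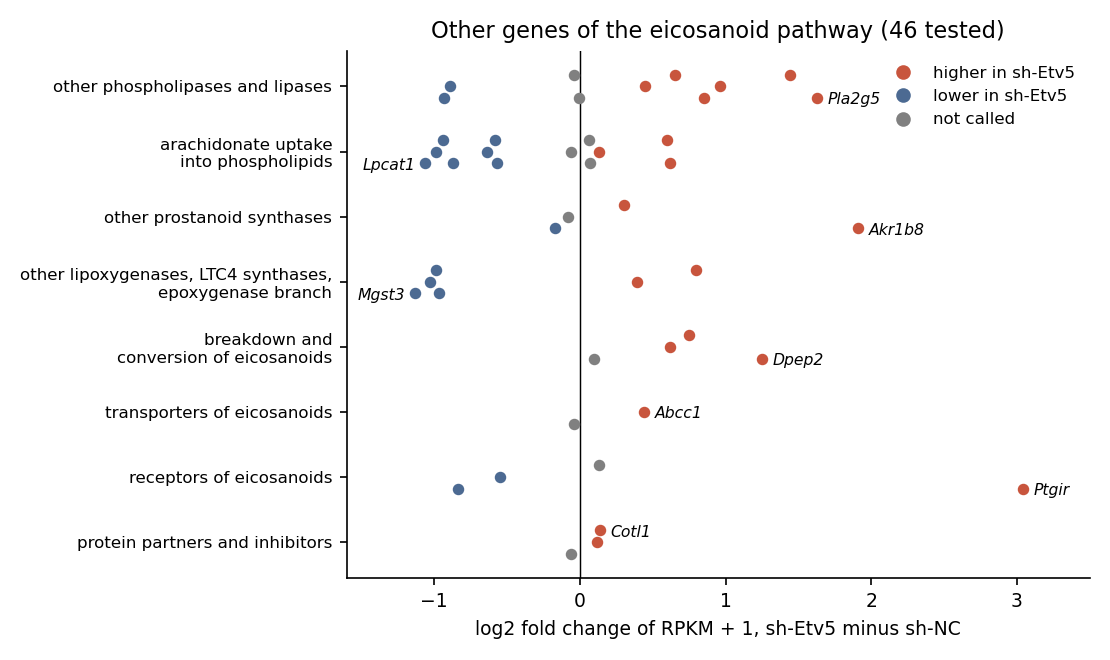
Log2 fold change of RPKM + 1 (sh-*Etv5* minus sh-NC) of the 46 tested genes among 93 other pathway genes, in rows by role, red where called higher, blue where called lower and grey where not called, with the largest change of each role named. *Ptgir* at 3.04 lies farthest to the right, and the points of the arachidonate uptake and the lipoxygenase and leukotriene C4 synthase roles lie mostly left of 0.

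The targeted gene and the marker genes bear on these values as follows. *Etv5* was read at 9.18, 9.89 and 9.39 RPKM in sh-NC and 5.19, 4.91 and 5.28 RPKM in sh-*Etv5*, a mean 46.0% lower (log2 fold change -0.78, limma adjusted p 2.74e-07), although 24.5% of its 50-base stretches also occur in *Gm4798*. Of 8 macrophage markers 7 were tested and *Mertk* was at most 0.0653 RPKM. Their summed RPKM ran from 3837 to 3942.2 in sh-NC and from 2829.2 to 2909.1 in sh-*Etv5*. *Lyz2* made up most of that sum, at 2834.2 ± 40.3 RPKM in sh-NC and 2040.8 ± 54.2 RPKM in sh-*Etv5*. Of the 7 tested markers, *Lyz2*, *Csf1r*, *Cd68* and *Fcgr1* fell (4), and *Adgre1*, *Itgam* and *Spi1* rose (3). In a bulk sample of a single line, fewer cells that express a marker and less of its RNA per cell cannot be told apart.

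Markers of other cells known to make eicosanoids were read as well. The 6 neutrophil markers summed to 0.289 to 0.63 RPKM in sh-NC and 15.6 to 19.9 RPKM in sh-*Etv5*. That sum was almost wholly *S100a8* (0.306 ± 0.184 and 17.1 ± 2.29 RPKM), while *Ly6g*, *S100a9* and *Elane* were listed at 0 in all 6 libraries. The 4 platelet markers summed to 0.0841 to 0.249 and 0.986 to 1.56 RPKM. Among them *Pf4* (0.0548 ± 0.095 and 0.767 ± 0.405 RPKM) and *Gp9* (0.0793 ± 0.0341 and 0.382 ± 0.154 RPKM) did not overlap between the groups. *Itga2b* and *Ppbp* did overlap. The 6 mast cell markers reached at most 0.0751 and 0.0212 RPKM in the groups, with *Mcpt4*, *Tpsb2* and *Fcer1a* at 0. Of the remaining lists the 4 T cell markers summed to at most 0.111 and 0.181 RPKM, the 3 B cell markers to at most 0.199 and 0.367 RPKM, and the 4 fibroblast markers to at most 0.0222 and 0.164 RPKM with *Col1a2* at 0. *S100a8*, *Pf4* and *Gp9* thus moved with the groups, and their part in the enzymes' values was not tested.

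The libraries themselves were alike within groups. The sum of all RPKM ran from 320462 to 322949 in sh-NC and from 330454 to 340257 in sh-*Etv5*. The highest gene was *Eef1a1* at 3766 to 3856 RPKM in sh-NC and *Spp1* at 11157 to 11721 RPKM in sh-*Etv5*. Read depth is unknown because only RPKM values were used, so no counting interval is given.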

How the data were processed

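Messenger RNA (polyA RNA, Trizol extraction, TruSeq RNA kit) of 3 sh-NC and 3 sh-*Etv5* libraries was measured, and groups and replicate numbers came from the sample titles. The authors deposited RPKM values for each symbol in each library, which they computed from coverage tracks, and these were used as given. The processing notes name the build mm10, and the aligner, counter and use of strand are not given in the sources used here. Because RPKM is relative to the mapped total of a library, a large change in abundant messages moves the values of the others, and depth cannot be recovered.

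The 10 enzymes, the 93 other pathway genes and the marker lists were chosen with earlier results of these data known. Values were analysed as log2(RPKM + 1) with limma 3.58.1 (R 4.3.3, eBayes with trend, two-sided), on the 10738 genes that reached 1 RPKM in 3 or more libraries, and p-values were adjusted by the Benjamini-Hochberg method over all of them. limma is also the package named in the methods of the study. Measures within a library were compared with exact permutation tests over the 20 assignments of libraries (SciPy 1.17.1). Every enzyme is described, with antisense or close copies by symbol. From each role of the other genes, the 3 called genes with the largest absolute log2 fold change are named. Coordinates and shared 50-base stretches came from GENCODE M21 on GRCm38, where all 10 enzymes matched by symbol, and promoters from RefSeq windows, where 9 of the 10 matched. The fit was also run on simulated data with independent noise and 200 of the 10738 genes changed. It recovered 58 of 67 genes changed by 0.5 on the log2 scale, with 2 false calls. Far fewer genes changed there than were called here, so this checks the working of the fit and not these calls. Alternatives covered the pseudocount, the filter, scaling, trend, replicate block, scale, fold threshold and each library left out.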

Additional observations from a re-analysis of the deposited data

How the results depend on the processing

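The counts of enzymes called, 2 higher and 6 lower, kept within 1.5 times under 16 of 17 alternatives each. A filter at a mean RPKM of 5 left 1 higher, because *Ptges* dropped out of the test, and a threshold of log2 fold change above 1 left 1 lower. Under that threshold the other pathway genes gave 5 higher and 3 lower, and *Etv5*, at -0.78, did not pass it. Leaving out each library in turn, with the set of tested genes kept, gave 2 enzymes higher, 6 to 7 lower, 18 to 19 other genes higher and 15 to 16 lower, with *Etv5* from -0.80 to -0.75. The fold changes of single enzymes kept their call in 145 of 152 settings and none changed sign. The exceptions were 5 enzymes under the fold threshold, and *Pla2g4a*, called lower in both settings given with its values. Among 24 of the other named genes, *Ptges2* and *Plaa* lost their call in 9 of 377 settings without the fold threshold, and no sign turned among called values. The median log2 fold change of all tested genes was -0.0492 as deposited, -0.103 with libraries rescaled to the same sum, -0.0716 after quantile normalization and -0.0494 when rescaled by genes outside the 10 highest, a setting added after the data were seen. The difference between *Ptgs2* and *Ptgs1* ranged from 7.15 to 7.76, that between *Alox5* and *Alox5ap* from -0.51 to -0.39, and the gain in *Ptges* share from 1.74 to 5.33 percentage points over their alternatives, with exact p from 0.1 to 0.25. Each of these exact p-values was the smallest its setting allows. That floor is 0.1 with all 6 libraries, 0.2 with a library left out and 0.25 with the replicate block.

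Same-numbered libraries did not deviate together (r = 0.0739, -0.071 and -0.0352), so no pairing by number was seen in the values. Whether same-numbered libraries were infected or prepared together is not stated, and these correlations cannot tell. With the replicate block 2 enzymes were higher and 6 lower, and the calls of all 9 tested enzymes were the same. With 3 libraries a group, the permutation tests cannot go below 0.1. Differences in genes near 1 RPKM, such as *Tbxas1* and *Ptges* in sh-NC, rest on an unknown number of reads.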
